A study of Homo sapiens with 20 samples.

Results

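The genes described here are those of sterol and fatty acid synthesis that answer to SREBP, the sterol regulatory element binding protein, together with the regulators of SREBP and the genes that move cholesterol. They were taken by name from a list of 38 symbols. MSMO1 and SC5DL are each listed under a second symbol as well, so the list matched 36 genes of the 54435 features counted. All 36 were among the 16792 features that passed a filter on low counts. They comprise 8 genes from acetyl-CoA to squalene, 10 from squalene to cholesterol, 5 for SREBP and its control, 5 for sterol transport and efflux, and 8 for fatty acid synthesis and desaturation.

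Polyadenylated RNA was sequenced from H1, an established human embryonic stem cell line, and from its derivatives DIGIT KO1 and DIGIT KO2, labelled as knockouts of the long noncoding RNA gene DIGIT. Every line was sampled undifferentiated in mTeSR1 medium (day 0) and after 4 days in RPMI and B27 with Activin A at 50 ng/ml, a treatment that drives such cells to endoderm. The 6 groups, written WT, KO1 and KO2 at day 0 or day 4, held 2 libraries each. KO1 and KO2 are each 1 line, so that an effect of the genotype and a property of the line cannot be told apart, and no feature was named DIGIT, so its own level is not analysed here. Medium, Activin A and time all differ between day 0 and day 4 and cannot be told apart either. In bulk RNA a lower value may stand for fewer cells of a type or for less RNA per cell.

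SREBPs are made as membrane proteins of the endoplasmic reticulum. When sterols are scarce, SCAP escorts them to the Golgi apparatus, where proteases release the part that enters the nucleus and switches on the genes for making cholesterol and fatty acids. When sterols are plentiful, INSIG proteins hold SCAP and SREBP in place. SREBF2 encodes the form that acts mainly on cholesterol genes and SREBF1 the forms that act mainly on fatty acid genes. Oxidised sterols in turn activate LXR, a nuclear receptor that raises the cholesterol exporters ABCA1 and ABCG1 and MYLIP, a ubiquitin ligase that removes lipoprotein receptors from the cell surface. The programme therefore has arms that usually move against each other when the sterol content of a cell changes.

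SREBP binds sterol regulatory elements and works together with NF-Y, which binds CCAAT. Promoters of the genes, taken from RefSeq on GRCh38.p14 as 300 bases from 250 before to 50 after each start, were therefore searched on both strands for 4 motifs, a sterol element core (TCACNCCAC), CCAAT, the E-box CACGTG and GGGCGG. The table matched 31 of the 36 genes with 42 windows, and ABCG1, ACAT2, FASN, FDFT1 and SQLE were not matched. CCAAT stood in 26 of the 42 windows (61.9%), against 34.6% of all 35116 windows and 34.2% of the 16446 windows of tested features. In 7 windows (16.7%) it occurred at least 3 times, against 3.26% and 3.76%. GGGCGG stood in 90.5% of the windows, against 45.0% of all windows and 63.6% of those of tested features, and CACGTG in 14.3%, against 7.26% and 8.87%. The sterol element core was found in 1 window, that of SREBF2 (2.38%, against 1.13% and 1.11%). Some genes have several windows that overlap, so that a motif can be counted more than once. By gene, CCAAT stood in a window of 22 of the 31 genes, GGGCGG of 30 and CACGTG of 5. No match says only that these letters are not in the window.

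6 windows are printed 5′ to 3′ on the strand of the gene, with capitals for CCAAT or its reverse complement ATTGG, for the sterol element core and for CACGTG. MVK (chr12:109573544-109573843, plus strand), NSDHL (chrX:152830813-152831112, plus strand) and MSMO1 (chr4:165327419-165327718, plus strand) are shown because they hold 5, 5 and 4 CCAAT motifs, an overlapping pair among those of NSDHL. SREBF2 (chr22:41832855-41833154, plus strand) holds the single sterol element core and 1 CCAAT. INSIG1 (chr7:155297628-155297927, plus strand) holds 1 CACGTG and 1 CCAAT, and ABCA1 (chr9:104928106-104928405, minus strand) holds 1 CACGTG and 0 CCAAT. INSIG1 and ABCA1 are shown because their transcripts moved in opposite directions in KO1.
MVK: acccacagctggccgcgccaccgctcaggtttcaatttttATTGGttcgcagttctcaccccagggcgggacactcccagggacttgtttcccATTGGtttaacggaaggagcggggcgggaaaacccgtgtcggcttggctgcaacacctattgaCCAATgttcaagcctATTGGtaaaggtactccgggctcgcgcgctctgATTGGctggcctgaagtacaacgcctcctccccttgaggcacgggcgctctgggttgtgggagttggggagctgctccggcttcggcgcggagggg
NSDHL: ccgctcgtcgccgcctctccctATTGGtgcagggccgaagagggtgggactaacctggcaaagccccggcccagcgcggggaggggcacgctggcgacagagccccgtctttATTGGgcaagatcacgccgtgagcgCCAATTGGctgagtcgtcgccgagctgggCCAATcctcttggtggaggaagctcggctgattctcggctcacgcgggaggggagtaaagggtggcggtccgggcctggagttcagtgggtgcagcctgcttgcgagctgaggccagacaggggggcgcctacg
MSMO1: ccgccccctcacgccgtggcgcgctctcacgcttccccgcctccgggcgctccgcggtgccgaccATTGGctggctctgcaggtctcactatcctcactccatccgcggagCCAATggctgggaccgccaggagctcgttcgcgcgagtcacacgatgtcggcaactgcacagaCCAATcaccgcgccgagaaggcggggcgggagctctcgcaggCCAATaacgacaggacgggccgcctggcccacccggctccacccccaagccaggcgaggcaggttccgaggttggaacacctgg
SREBF2: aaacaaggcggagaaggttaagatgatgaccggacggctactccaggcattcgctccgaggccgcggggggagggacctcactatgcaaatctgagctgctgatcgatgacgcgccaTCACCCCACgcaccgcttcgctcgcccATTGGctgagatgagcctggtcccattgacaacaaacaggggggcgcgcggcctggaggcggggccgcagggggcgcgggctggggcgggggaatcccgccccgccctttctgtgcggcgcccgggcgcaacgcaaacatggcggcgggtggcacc
INSIG1: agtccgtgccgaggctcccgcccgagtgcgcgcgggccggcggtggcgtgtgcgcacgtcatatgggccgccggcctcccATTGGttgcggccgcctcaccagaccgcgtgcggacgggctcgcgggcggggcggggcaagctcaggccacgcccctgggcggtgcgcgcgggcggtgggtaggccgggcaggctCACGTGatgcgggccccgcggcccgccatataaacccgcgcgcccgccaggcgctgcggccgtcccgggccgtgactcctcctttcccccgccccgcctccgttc
ABCA1: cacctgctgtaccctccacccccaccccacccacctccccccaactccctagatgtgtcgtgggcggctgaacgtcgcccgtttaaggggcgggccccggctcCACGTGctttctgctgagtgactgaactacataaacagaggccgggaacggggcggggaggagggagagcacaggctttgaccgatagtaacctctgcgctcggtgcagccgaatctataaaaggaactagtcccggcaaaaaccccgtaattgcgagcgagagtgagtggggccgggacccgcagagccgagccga

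Total counts were 9942016 to 21394547 per library. Values are CPM, counts on a common scale per library total after TMM scaling, a fold change is on the log2 scale with its standard error (SE), and a gene is called higher or lower at an adjusted p under 0.05 in edgeR's quasi-likelihood test with Benjamini-Hochberg adjustment over all 16792 features. Replicates of KO1 day 0 stood apart from each other, with a chi-square of 22.65 per gene against 1.93 to 3.98 in the other groups, and results that rest on them are given with and without them. The summed level of 8 definitive endoderm markers, SOX17, FOXA2 and CER1 among them, was 68.5 to 88.2 CPM at day 0. At day 4 it was 4640 to 5050 CPM in WT, 5024 to 5087 in KO1 and 909 to 1138 in KO2. The pluripotency markers summed to 3072 to 3441 CPM at day 0, with KO2 at 3072 to 3230. At day 4 they summed to 2588 to 2673, 2577 to 2686 and 3401 to 3554 CPM in the same order. Markers of blood and endothelium stayed at or below 2.24 CPM at day 4.

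Between day 0 and day 4 of WT cells the synthesis genes fell together. Of the 36 genes 28 were lower at day 4, 1 was higher and 7 were not called, with a median log2 fold change of −0.51. Over all features 25.4% were lower and 24.3% higher. The genes that fell included 7 of 8 on the way to squalene, 8 of 10 from squalene to cholesterol, 3 of 5 of SREBP and its control, 3 of 5 of transport and efflux and 7 of 8 of fatty acid synthesis. The heat map of the 36 genes shows most genes of the WT day 4 libraries below day 0.

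INSIG1, itself a target of SREBP, fell from 108.5 and 115.1 CPM to 31.6 and 36.2 CPM, a log2 fold change of −1.72 (SE 0.17, adjusted p = 6.17e-07). ACSS2, which makes acetyl-CoA from acetate, fell from 67.6 and 64.5 CPM to 20.7 and 25.6 CPM (−1.51, SE 0.19, adjusted p = 1.25e-05). ACACA, which commits acetyl-CoA to fatty acids, fell from 389.9 and 400.1 CPM to 192.9 and 214.9 CPM (−0.95, SE 0.07, adjusted p = 5.58e-08). In each of these genes both day 4 libraries lay below both day 0 libraries. How many of all features separated in this way was not counted, here or in the comparisons below. HMGCS1, which builds the precursor of mevalonate, fell less, from 733.3 and 781.2 CPM to 504.4 and 560.4 CPM (−0.51, SE 0.11, adjusted p = 0.00173). TM7SF2, a sterol reductase, was the gene that rose, from 32.4 and 30.4 CPM to 47.0 and 54.8 CPM (0.70, SE 0.10, adjusted p = 3.75e-05).

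Of the genes known to answer to LXR, ABCG1 and MYLIP fell in WT as well and ABCA1 was not called. ABCG1 fell from 8.91 and 6.71 CPM to 0.992 and 1.42 CPM, a log2 fold change of −2.66 (SE 0.33, adjusted p = 9.33e-06). MYLIP fell from 30.4 and 31.8 CPM to 15.4 and 18.3 CPM (−0.88, SE 0.13, adjusted p = 3.46e-05). ABCA1 was at 16.0 and 15.1 CPM at day 0 and at 11.9 and 13.7 CPM at day 4, a difference that was not called (−0.27, adjusted p = 0.256). ACAT2, NSDHL, SREBF1, INSIG2, NPC1 and FADS1 were the other genes not called. The calls of MVK, LSS, EBP, DHCR7 and SREBF2 were lost without WT day 0 replicate 1, and those of IDI1 and MSMO1 without WT day 0 replicate 2. MVK, LSS and SREBF2 also lost theirs without WT day 4 replicate 2, IDI1 without WT day 4 replicate 1, and MSMO1 and DHCR7 without either of these, with MSMO1 not called in DESeq2 either (adjusted p = 0.12). The highest adjusted p reached was 0.0735 for EBP and 0.281 for MSMO1.

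**Figure D1:**
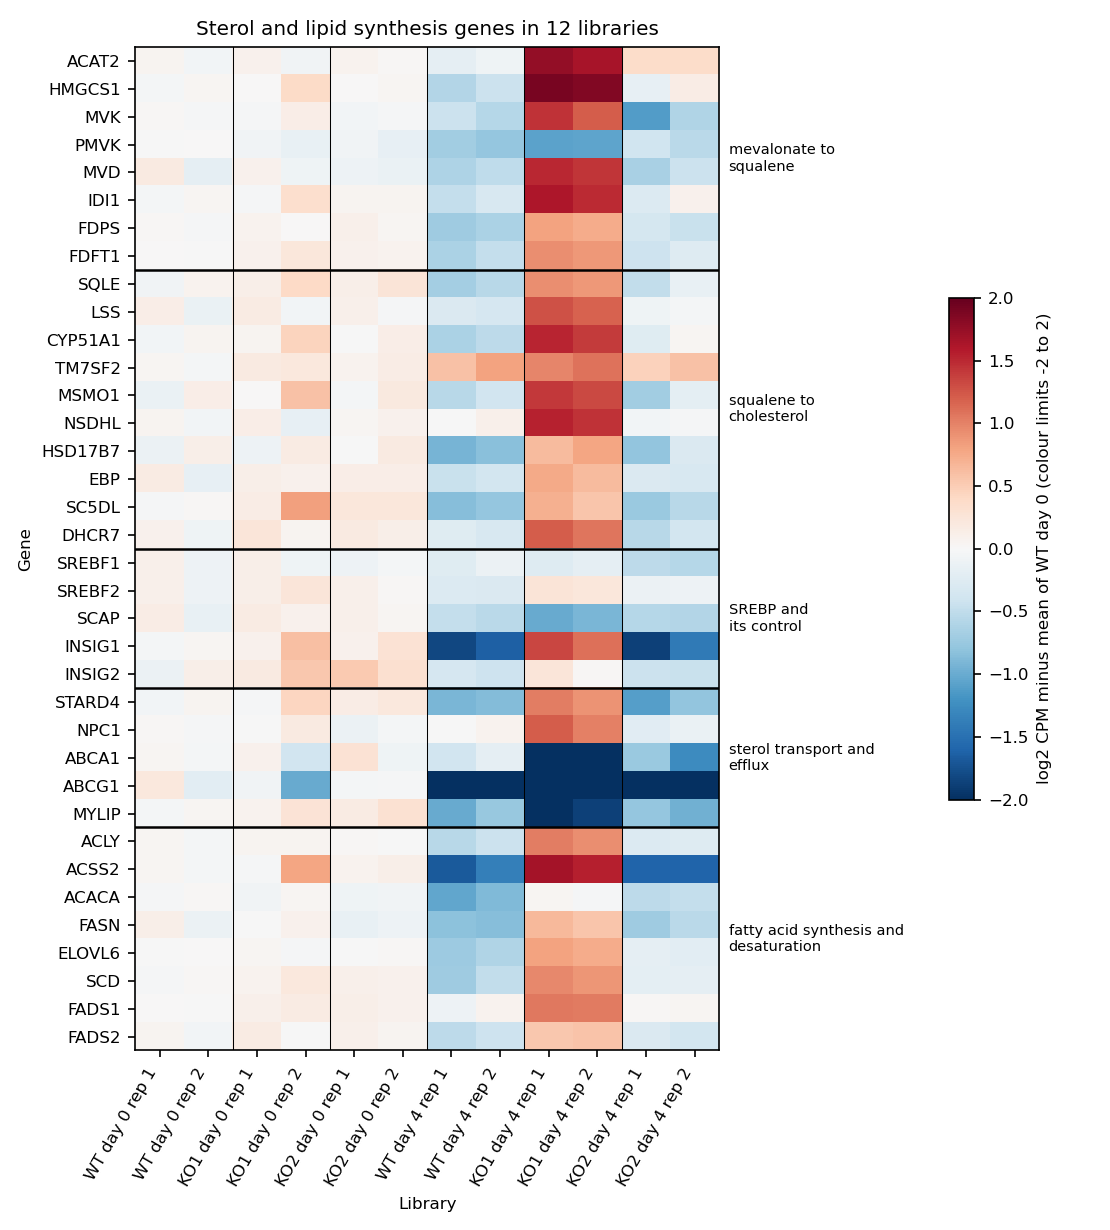
Log2 CPM of the 36 genes (rows, ordered by step) in the 12 libraries (columns, ordered by line and day), each minus the gene's mean in WT day 0, on a colour scale from −2 to 2. Most rows lie below WT day 0 in WT and KO2 at day 4 and above it in KO1 at day 4. ABCA1 and MYLIP are lowest in KO1 at day 4, and ABCG1 is at the low end of the scale in all day 4 libraries.

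At day 4 most of these transcripts were higher in KO1 than in WT. Of the 36 genes 30 were higher, 4 lower and 2 not called, with a median log2 fold change of 1.45, against 10.5% higher and 9.42% lower over all features. Each of the 10 genes from squalene to cholesterol and each of the 8 fatty acid genes was higher, as were 7 of 8 on the way to squalene, 3 of 5 of SREBP and its control and 2 of 5 of transport and efflux. The genes lower in KO1 were PMVK, SCAP, ABCA1 and MYLIP. The count of higher genes was 28 to 30 without any 1 library. The summed endoderm markers of WT and KO1 overlapped at day 4 (4640 to 5050 against 5024 to 5087 CPM), primitive streak markers were at 472 to 626 against 703 to 717 CPM, and their part in the result was not tested.

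Among the enzymes that lead to squalene, HMGCS1 was at 504.4 and 560.4 CPM in WT and at 2830 and 2720 CPM in KO1, a log2 fold change of 2.38 (SE 0.12, adjusted p = 6.51e-09) or 5.21-fold. MVD, which decarboxylates mevalonate diphosphate, was at 69.7 and 75.3 CPM in WT and at 302.9 and 288.1 CPM in KO1 (2.03, SE 0.11, adjusted p = 1.56e-08). IDI1, the isomerase that follows it, was at 96.6 and 108.2 CPM against 412.7 and 377.2 CPM (1.95, SE 0.12, adjusted p = 5.46e-08). Both KO1 libraries stood above both WT libraries for these enzymes. ACAT2, which joins acetyl-CoA units, and MVK, the mevalonate kinase whose promoter carries 5 CCAAT motifs, both differed by 1.83 (SE 0.08 and 0.14, adjusted p = 2.81e-09 and 3.42e-07). FDPS and FDFT1, which join isoprenoid units into farnesyl diphosphate and squalene, both differed by 1.45 (adjusted p = 6.51e-09 and 1.56e-08). PMVK, the kinase between MVK and MVD, was the exception at 20.2 and 19.1 CPM in WT and 15.5 and 15.7 CPM in KO1 (−0.34, SE 0.11, adjusted p = 0.0393). That call was lost without any 1 of the 4 libraries compared, with an adjusted p of up to 0.187 without KO1 day 4 replicate 1, without KO2 day 4 replicate 2 (0.0539), without the filter (0.111) and in DESeq2 (0.104).

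From squalene to cholesterol the log2 fold changes of KO1 against WT ran from 0.33 for TM7SF2 to 2.04 for CYP51A1. CYP51A1, the lanosterol demethylase, was at 86.7 and 93.3 CPM in WT and at 385.6 and 352.7 CPM in KO1 (SE 0.12, adjusted p = 3.53e-08). MSMO1, which acts in the removal of other methyl groups of the sterol, was at 124.0 and 139.1 CPM against 483.6 and 453.6 CPM (1.83, SE 0.18, adjusted p = 4.77e-06). NSDHL, its partner in that removal, was at 56.5 and 60.8 CPM against 165.4 and 155.5 CPM (1.45, SE 0.10, adjusted p = 1.05e-07). The groups did not overlap for these enzymes. MSMO1 and NSDHL are those printed above for their repeated CCAAT motifs, and the window of CYP51A1 held 0 CCAAT. Whether CCAAT counts go with the size of a change was not tested. SQLE, the squalene epoxidase, differed by 1.51, LSS, the lanosterol synthase, by 1.53, DHCR7, the last reductase, by 1.42, and EBP, the sterol isomerase, by 1.10, with adjusted p values from 4.62e-08 to 1.8e-06. SC5DL, a desaturase, differed by 1.45 and HSD17B7, a ketosteroid reductase, by 1.59 (adjusted p = 9.36e-06 and 9.68e-06), with HSD17B7 sharing sequence with the pseudogene HSD17B7P2, so that their reads cannot be fully told apart. The call of TM7SF2 was lost without WT day 4 replicate 1 (0.21, adjusted p = 0.275) and without either KO1 day 4 library (adjusted p = 0.0788 and 0.189).

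Within the control of SREBP the genes did not move alike. INSIG1 was at 31.6 and 36.2 CPM in WT and at 280.8 and 240.1 CPM in KO1, a log2 fold change of 2.94 (SE 0.17, adjusted p = 2.43e-08) or 7.67-fold. SREBF2 was at 334.6 and 329.6 CPM against 482.5 and 473.5 CPM (0.53, SE 0.08, adjusted p = 0.00032). SREBF1 was at 75.4 and 82.7 CPM against 75.3 and 79.5 CPM and was not called (−0.03, SE 0.09, adjusted p = 0.87). INSIG1 thus differed by more on the log2 scale than either gene that encodes SREBP. SCAP, the escort, was lower in KO1 at 82.2 and 88.1 CPM against 118.9 and 114.2 CPM (−0.45, SE 0.09, adjusted p = 0.00318), a call lost without KO1 day 4 replicate 1 (−0.40, adjusted p = 0.0564). INSIG2 was at 9.54 and 9.02 CPM in WT and at 14.3 and 12.3 CPM in KO1 (0.52, SE 0.16, adjusted p = 0.0328), a call lost without any 1 of these 4 libraries, with an adjusted p of up to 0.235 without KO1 day 4 replicate 1, without KO2 day 4 replicate 1 (0.052) and in DESeq2 (0.0696).

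The genes that export cholesterol or limit its uptake lay on the other side. ABCA1 was at 11.9 and 13.7 CPM in WT and at 1.73 and 1.58 CPM in KO1, a log2 fold change of −2.96 (SE 0.26, adjusted p = 2.14e-06). MYLIP was at 15.4 and 18.3 CPM against 7.595 and 8.53 CPM (−1.06, SE 0.14, adjusted p = 0.000134). ABCG1 was at 0.992 and 1.42 CPM against 0.518 and 0.344 CPM and was not called (−1.51, SE 0.56, adjusted p = 0.0727). These values of ABCG1 lie close to the floor, since 3 counts equal 0.134 to 0.294 CPM. ABCG1 was called without the filter (adjusted p = 0.0101), in a fit of WT and KO1 day 4 alone (0.0167) and without either KO1 day 0 library (0.0118 and 0.0115). STARD4, a carrier of sterol between membranes, was higher in KO1 at 131.5 and 120.4 CPM against 34.3 and 35.5 CPM (1.85, SE 0.13, adjusted p = 2.39e-07). NPC1, which lets cholesterol leave the lysosome, was higher at 179.9 and 156.8 CPM against 77.4 and 81.3 CPM (1.08, SE 0.09, adjusted p = 1.27e-06).

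Among the fatty acid genes ACSS2 differed most, at 20.7 and 25.6 CPM in WT and 208.2 and 193.6 CPM in KO1, a log2 fold change of 3.11 (SE 0.19, adjusted p = 5.39e-08) or 8.65-fold. ACLY, which makes acetyl-CoA from citrate, was at 637.0 and 693.8 CPM against 1895 and 1769 CPM (1.46, SE 0.07, adjusted p = 6.51e-09). FASN, the fatty acid synthase, was at 796.5 and 776.2 CPM against 2185 and 2049 CPM (1.43, SE 0.09, adjusted p = 3.53e-08). SCD, which puts the first double bond into fatty acids, was at 1404 and 1638 CPM against 4482 and 4229 CPM (1.52, SE 0.08, adjusted p = 1.04e-08). No library of KO1 overlapped one of WT for any of these genes. How many of all features did not overlap was not counted, here or for the genes above. ELOVL6, an elongase, differed by 1.43, the desaturases FADS1 and FADS2 by 1.06 and 1.02, and ACACA by 0.96, with adjusted p values from 6.51e-09 to 4.81e-07. FADS1 and FADS2 overlap in the genome and may hold some of each other's reads or have lost reads as ambiguous.

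**Figure D2:**
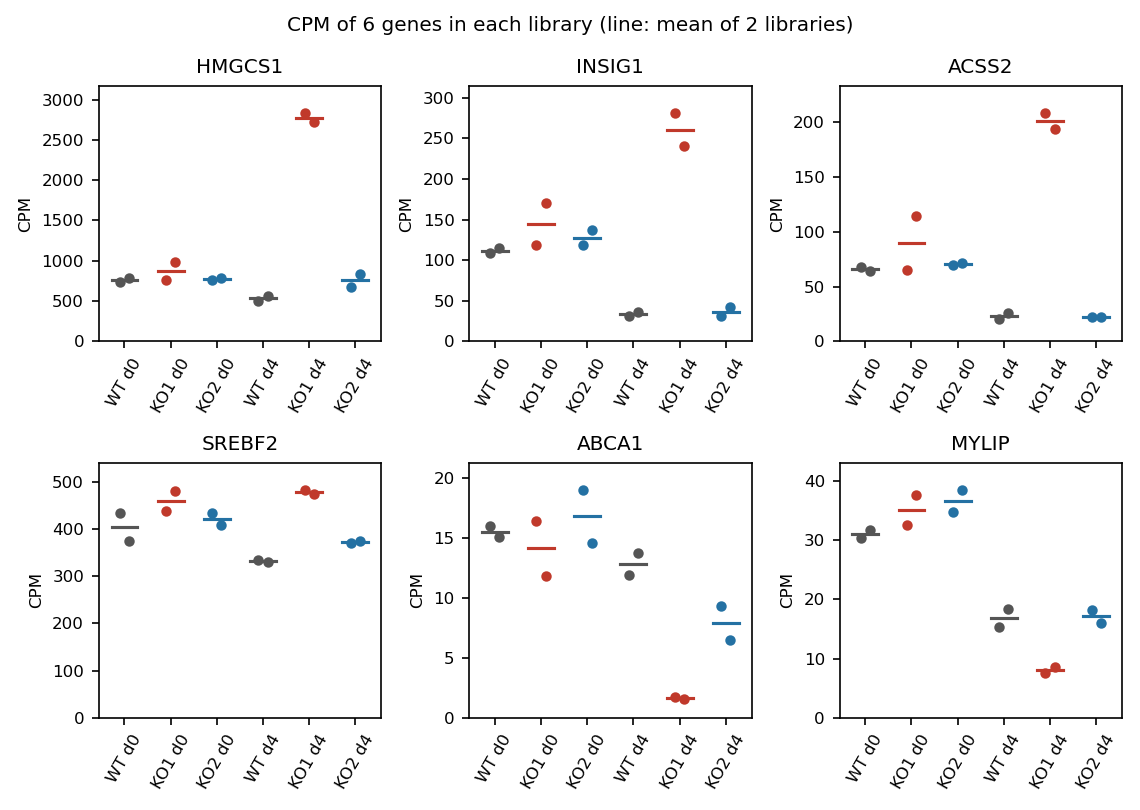
CPM per library (points) and the mean of the 2 libraries (line) of HMGCS1, INSIG1, ACSS2, SREBF2, ABCA1 and MYLIP in each of the 6 groups, on a separate vertical axis per gene. The KO1 day 4 libraries are the highest for HMGCS1, INSIG1 and ACSS2 (2830 and 2720, 280.8 and 240.1, and 208.2 and 193.6 CPM) and the lowest for ABCA1 and MYLIP.

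Set against its own day 0, KO1 raised most of the genes that WT lowered. In KO1 26 genes rose, 6 fell and 4 were not called, with a median of 0.75, while 29.1% of all features were higher and 29.3% lower. HMGCS1 went from 759.2 and 989.7 CPM to 2830 and 2720 CPM (1.67, SE 0.12, adjusted p = 1.17e-08) and NSDHL, which was not called in WT, from 62.5 and 51.0 CPM to 165.4 and 155.5 CPM (2.83-fold, adjusted p = 4.68e-09). The 6 that fell were PMVK (−0.96), SCAP (−1.09), SREBF1 (−0.23), ABCA1 (−3.09), ABCG1 (−3.68) and MYLIP (−2.12). PMVK, SCAP, ABCG1 and MYLIP also fell in WT, and SREBF2, INSIG2, SC5DL and ACACA were not called in KO1. The median was 0.84 without KO1 day 0 replicate 2 and 0.70 without replicate 1. SC5DL was called without replicate 2 (0.49, adjusted p = 1.46e-05) and INSIG2 without replicate 1 (−0.40, adjusted p = 0.0131). The call of SREBF1 (adjusted p = 0.0442) was lost in 12 of 18 alternatives, with an adjusted p of up to 0.224 without KO1 day 0 replicate 1.

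The difference between the changes with day of KO1 and of WT was tested directly as an interaction. The change was higher in KO1 for 27 genes, lower for 3 and not called for 6, with a median of 1.33, against 4.99% and 4.81% of all features. It was largest for ACSS2 (2.67, SE 0.26, adjusted p = 1.75e-05), INSIG1 (2.57, SE 0.22, adjusted p = 6.7e-06) and HMGCS1 (2.17, SE 0.16, adjusted p = 2.32e-06). It was negative for ABCA1 (−2.82, adjusted p = 0.000101), MYLIP (−1.24, adjusted p = 0.000862) and SCAP (−0.57, adjusted p = 0.0119). PMVK, TM7SF2, SREBF1, SREBF2, INSIG2 and ABCG1 were not called. The median was 1.27 without KO1 day 0 replicate 1. The calls of SC5DL and SCAP were each lost without WT day 0 replicate 2 (adjusted p = 0.0597 and 0.0529), WT day 4 replicate 1 (0.0599 and 0.0509) or KO1 day 4 replicate 1 (0.0639 and 0.0768). With KO1 day 0 replicate 2 left out SREBF2 (0.40, adjusted p = 0.00789) and ABCG1 (−1.46, adjusted p = 0.0468) were called as well. SREBF2 was also called without KO1 day 0 replicate 1 (adjusted p = 0.0493) or WT day 0 replicate 2 (0.0455). These comparisons share the WT and KO1 libraries and are not independent of each other.

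**Figure D3:**
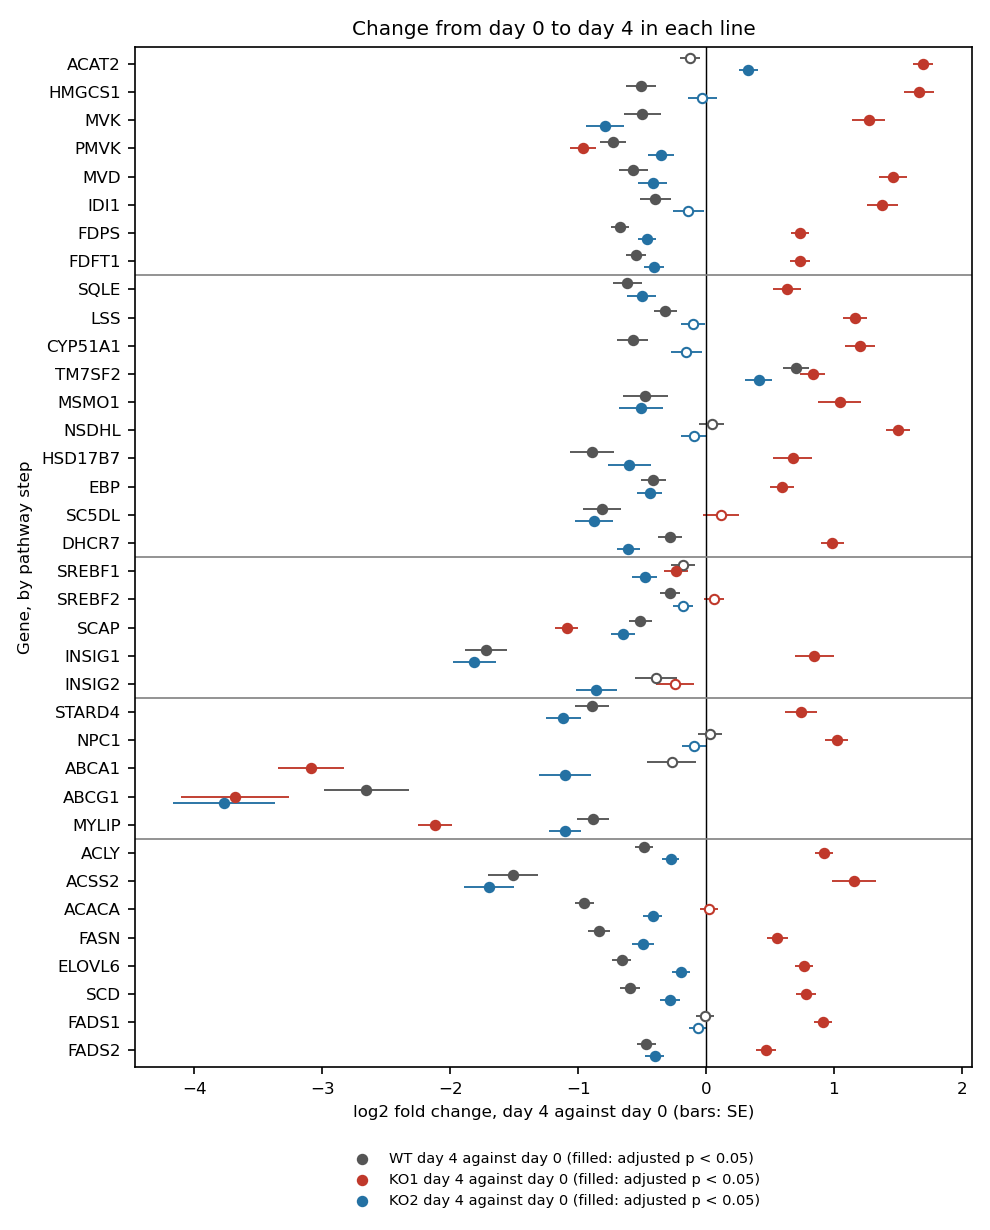
Log2 fold change from day 0 to day 4 of the 36 genes, ordered by step, in WT, KO1 and KO2, with bars of 1 SE and filled points where the adjusted p was under 0.05. The median gene lies at −0.51 in WT, 0.75 in KO1 and −0.43 in KO2.

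Most of the genes fell with day in KO2. From day 0 to day 4 in KO2 26 genes fell, 2 rose (ACAT2 0.33 and TM7SF2 0.41) and 8 were not called, with a median of −0.43, against 25.7% lower and 25% higher over all features. INSIG1 went from 118.6 and 136.9 CPM to 30.6 and 41.9 CPM (−1.81, SE 0.17, adjusted p = 4.85e-07). ACSS2 went from 69.3 and 71.7 CPM to 21.8 CPM in both libraries (−1.70, SE 0.20, adjusted p = 5.47e-06), and ABCG1 from 7.49 and 7.64 CPM to 0.562 and 0.535 CPM (−3.77, SE 0.40, adjusted p = 2.02e-06). HMGCS1 was at 759.4 and 781.5 CPM at day 0 and at 674.3 and 836.8 CPM at day 4, which overlap (−0.03, adjusted p = 0.857). The call of ELOVL6 was lost in 8 of 18 alternatives, namely without any 1 KO2 library (adjusted p of up to 0.153) or either KO1 day 4 library (0.0549 and 0.0527), without the filter and in DESeq2 (0.0516). Those of MVD, MSMO1 and HSD17B7 were lost without KO2 day 4 replicate 1 (0.0899, 0.273 and 0.116), those of MSMO1 and HSD17B7 also without KO2 day 0 replicate 2, that of MSMO1 in DESeq2 (0.0832), and that of PMVK without KO2 day 0 replicate 1 or KO2 day 4 replicate 2 (0.107).

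Against WT at day 4, KO2 was higher for 9 genes, lower for 2 and not called for 25, with a median of 0.12, while 13.5% of all features were higher and 14.5% lower. ACAT2 was at 392.2 and 391.9 CPM against 268.1 and 285.8 CPM in WT (0.50, SE 0.08, adjusted p = 0.000202). ELOVL6 was at 158.1 and 156.0 CPM against 109.1 and 118.5 CPM (0.46, SE 0.07, adjusted p = 0.000219), and ACACA at 275.6 and 285.0 CPM against 192.9 and 214.9 CPM (0.46, SE 0.07, adjusted p = 0.000309). SCD was at 2004 and 2020 CPM against 1404 and 1638 CPM (0.40, SE 0.08, adjusted p = 0.00132). These 4 genes kept their call in each of 18 alternatives. The other genes higher were HMGCS1 (0.51), CYP51A1 (0.48), FDPS (0.28), FDFT1 (0.22) and ACLY (0.22), and those lower were ABCA1 (−0.71, adjusted p = 0.0159) and SREBF1 (−0.37, adjusted p = 0.0101). Each of these 7 lost its call in at least 2 alternatives. FDFT1 lost it in 13 of 18, RLE factors, upper-quartile factors and DESeq2 among them, and ACLY in 5. Without WT day 4 replicate 1, 4 genes were called higher (HMGCS1, CYP51A1, FDPS, FDFT1 and ACLY lost their call), and without KO2 day 4 replicate 2, 5 (FDPS kept its call). Without WT day 4 replicate 2 none was called lower, and without KO2 day 4 replicate 2 the call of ABCA1 was lost (−0.46, adjusted p = 0.206). Without either KO1 day 0 library 6 were called lower and up to 13 higher, and 18.3% to 18.4% of all features were then higher and 19.8% to 19.9% lower. INSIG1 (0.10, adjusted p = 0.717), ACSS2 (−0.09, adjusted p = 0.78) and MYLIP (0.01, adjusted p = 0.954) were not called. The summed endoderm markers were at 909 to 1138 CPM in KO2 and 4640 to 5050 CPM in WT in this comparison, and pluripotency markers at 3401 to 3554 against 2588 to 2673 CPM; their part in these values was not tested.

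The change with day differed between KO2 and WT for 3 genes, all higher in KO2, namely ACAT2 (0.46, adjusted p = 0.011), ACACA (0.54, adjusted p = 0.00313) and ELOVL6 (0.46, adjusted p = 0.00706). The other 33 genes were not called, and the median was 0.02, against 6.37% of all features higher and 7.5% lower. ACAT2 lost its call without KO2 day 0 replicate 2 or WT day 4 replicate 1 (adjusted p = 0.0628 and 0.0652), and ELOVL6 without WT day 4 replicate 1 (0.0513). Without either KO1 day 0 library 7 genes were called higher and 3 lower (ABCA1, SREBF1 and DHCR7), where 12.2% to 12.3% of all features were higher and 12.2% to 12.4% lower.

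The knockout lines were also compared with each other at day 4, a comparison that shares its libraries with those above. KO2 was lower than KO1 for 31 genes, higher for 4 and not called for ABCG1, with a median of −1.22, while 14.3% of all features were lower and 10.8% higher. ACSS2 was at 21.8 CPM in both KO2 libraries and at 208.2 and 193.6 CPM in KO1 (−3.21, SE 0.20, adjusted p = 2.2e-08). ABCA1 was at 9.31 and 6.49 CPM against 1.73 and 1.58 CPM (2.24, SE 0.28, adjusted p = 3.31e-05). The other genes higher in KO2 were PMVK (0.60), SCAP (0.39) and MYLIP (1.08). Calls of SCAP, INSIG2 and SREBF1 were lost without KO1 day 4 replicate 1 (adjusted p = 0.084, 0.154 and 0.0635), and those of INSIG2 and SREBF1 also without KO2 day 4 replicate 1 (0.0744 and 0.0735) or replicate 2 (0.102 and 0.125). SREBF1 lost its call without KO1 day 4 replicate 2 too (adjusted p = 0.133).

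**Figure D4:**
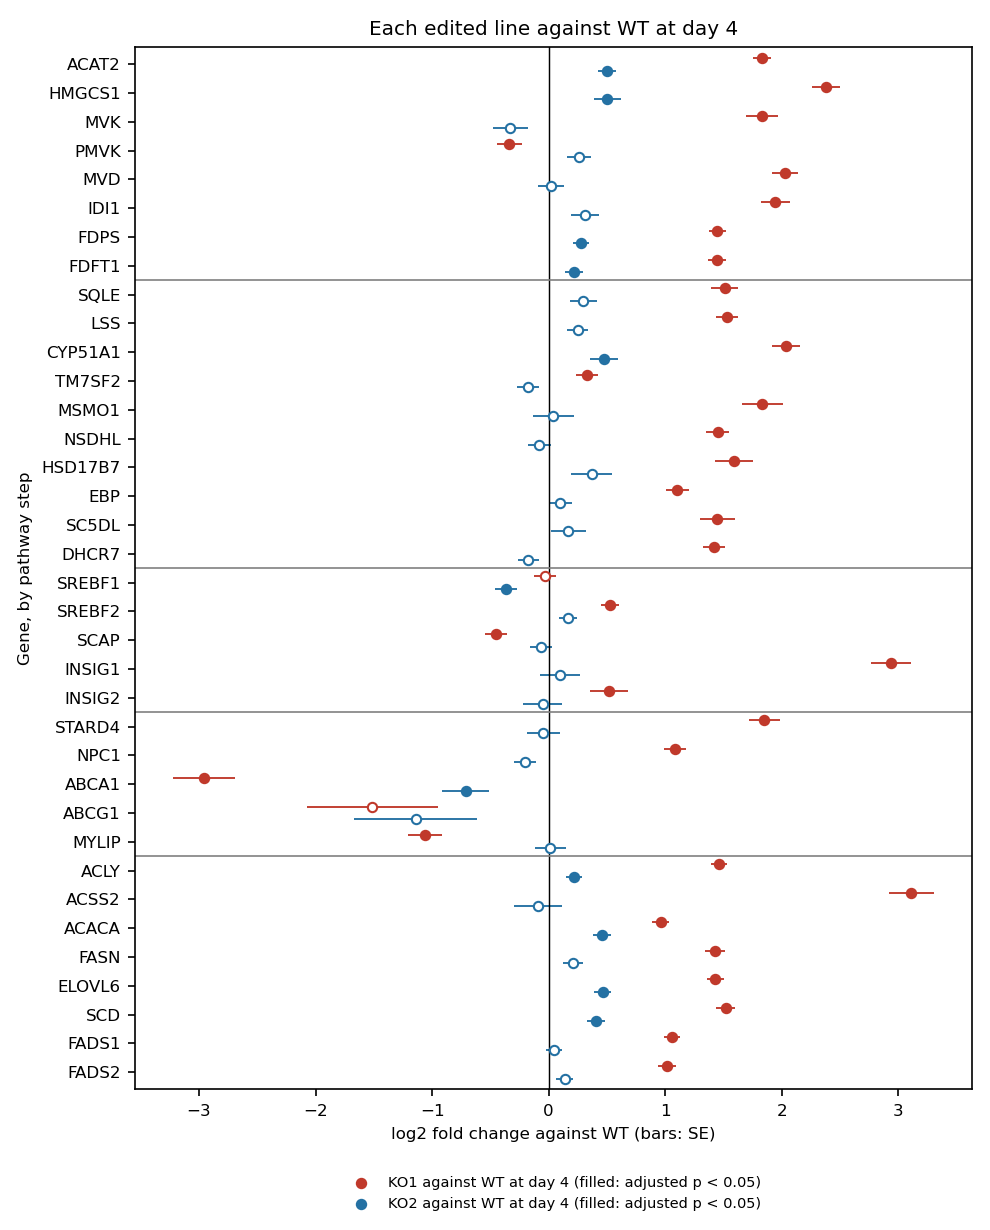
Log2 fold change at day 4 of KO1 and of KO2 against WT for the 36 genes, ordered by step, with bars of 1 SE and filled points where the adjusted p was under 0.05. In KO1 30 genes lie to the right of 0 as called and in KO2 9, and the medians are 1.45 and 0.12.

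At day 0 no gene of the 36 was called in either knockout line. For KO1 against WT 7 genes had an unadjusted p under 0.05, the lowest adjusted p was 0.252 (SC5DL, 0.52, SE 0.15), and DESeq2 called 0. Without the filter on low counts SC5DL, ACSS2, INSIG1 and MSMO1 were called higher (adjusted p = 1.28e-06, 0.00215, 0.00937 and 0.0255), where 0.825% of all features were higher and 0.531% lower. With the filter 0.0596% of all features were higher and 0.179% lower. For KO2 against WT 1 gene, INSIG2, had an unadjusted p under 0.05 (0.41, SE 0.16, adjusted p = 0.829), DESeq2 called 0, and 0.0536% of all features were higher and 0.0893% lower.

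The KO1 replicates at day 0 differed across the whole library, these genes included. ACSS2 was at 65.0 CPM in replicate 1 and 114.5 CPM in replicate 2, against 64.5 to 71.7 CPM in WT and KO2. SC5DL was at 211.0 and 333.5 CPM, INSIG1 at 119.1 and 170.2 CPM and MSMO1 at 181.7 and 272.4 CPM, while ABCG1 was at 7.36 and 3.83 CPM. Replicate 2 thus lay above the other day 0 libraries in the first 4 of these genes and below them in ABCG1. Over the 36 genes the chi-square between the replicates was 88.56 per gene, against 3.61 to 21.79 in the other groups. That is 3.91 times the value over all genes in KO1 day 0, against 1.88 to 10.05 times in the other groups. This chi-square grows with counts for the same relative difference. Counts were not matched between the 36 genes and all genes, so the ratios do not show which differed more. The KO1 day 0 libraries were also the deepest, at 17859275 and 21394547 counts. Without replicate 1, 13 genes were called higher than in WT, among them SC5DL (0.81), ACSS2 (0.80), INSIG1 (0.61), MSMO1 (0.58), CYP51A1 (0.45) and HMGCS1 (0.39), and ABCG1 was called lower (adjusted p = 0.00168). In that fit 11.2% of all features were higher and 10.7% lower. Without replicate 2 none of the 36 genes was called.

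**Figure D5:**
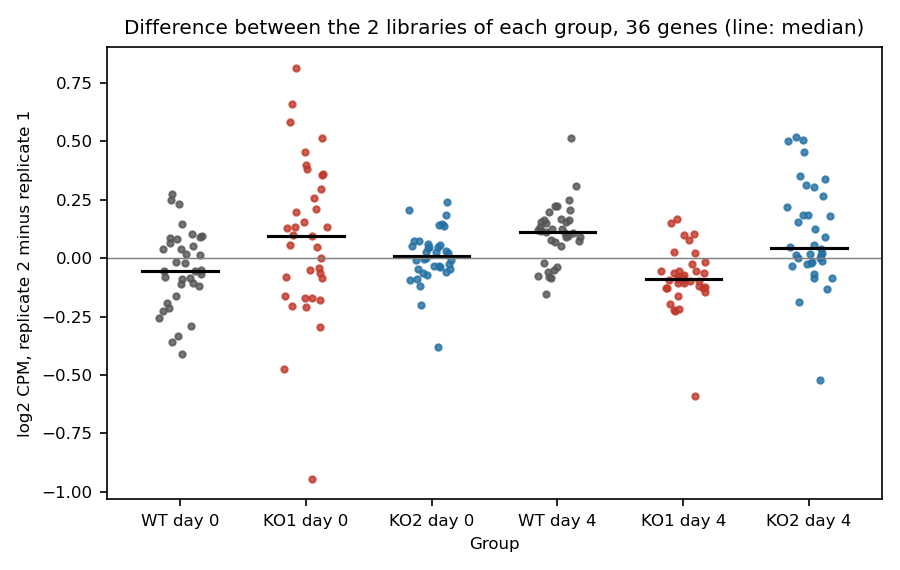
Log2 CPM of replicate 2 minus that of replicate 1 for the 36 genes (points) in each of the 6 groups. KO1 day 0 has the widest spread, from −0.94 to 0.82 around a median of 0.10.

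Other genes of the same pathways, given by their lists, were counted in the same comparisons. At day 4 of KO1 against WT 5 of 8 other sterol and isoprenoid genes were higher and 0 lower. Among them TMEM97, a sterol-responsive membrane protein, was at 440.9 and 402.5 CPM against 149.1 and 155.7 CPM (1.47). HSD17B7P2, the pseudogene of HSD17B7, was at 15.2 and 14.9 CPM against 4.81 and 4.77 CPM (1.65). Its reads cannot be fully told apart from those of HSD17B7, so it is not a fully separate gene in these counts, here or below. Of 12 other fatty acid and lipid genes 7 were higher and 0 lower, including ME1, the malic enzyme that yields NADPH (1.23), and PCYT2, of phosphatidylethanolamine synthesis (1.19). Of 5 other genes of SREBP processing, the Golgi proteases MBTPS1 and MBTPS2 among them, 0 were called in edgeR, with 0 at an unadjusted p under 0.05. Of 10 genes of LXR and cholesterol handling 2 were higher, LIPA (1.04), the lysosomal lipase, and SCARB1 (0.33), a lipoprotein receptor, and 1 was lower, CYP27A1 (−0.75), which makes an oxidised sterol. The same 10.5% and 9.42% of all features stand beside these counts.

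In the WT change with day, where 24.3% of all features were higher and 25.4% lower, the same lists were mixed. Of the 8 other sterol genes 4 fell and 1 rose, with RDH11 at −0.62, HSD17B7P2 at −0.96 and C14orf1 at 0.20. Of the 5 SREBP processing genes 3 rose and 1 fell, with MBTPS2 at 0.40, SEC24C, of the vesicle coat that carries SREBP from the endoplasmic reticulum, at 0.28 and SEC23A, of the same coat, at −0.27. Of the 10 LXR and cholesterol handling genes 3 rose and 5 fell, with SOAT1, which esterifies cholesterol, at 1.89, VLDLR at 1.30, SCARB1 at −1.09 and LIPA at −0.97. Of the 12 other fatty acid genes 4 rose and 5 fell, with PCYT1A at 0.53, MID1IP1 at 0.46, ACACB at −1.31 and FADS3 at −0.74. At day 4 of KO2 against WT the 4 lists had 1, 0, 1 and 1 gene higher and 1, 0, 3 and 3 lower, in the order sterol (8 genes), SREBP processing (5), LXR (10) and fatty acid (12), beside 13.5% of all features higher and 14.5% lower.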

How the data were processed

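Read counts per feature of 12 RNA-seq libraries were deposited by the authors. Per the submitters' processing notes they used Bowtie2 2.1.0, HTSeq 0.6.1 and hg19, and per the labels' protocols a TruSeq Stranded mRNA kit. The sources used here do not give the annotation or the strand setting of the counting. By whole span on GRCh38, 9 of the 36 genes overlap another protein-coding gene (ACAT2, MVK, IDI1, SREBF1, NPC1, ABCA1, ACACA, FADS1 and FADS2). Each may hold reads of its neighbour or may have lost reads set aside as ambiguous. Reads outside any feature (29.2% to 30.5% of a library), of low quality (19.3% to 22.2%), ambiguous (1.17% to 1.41%) or not aligned (0.115% to 0.171%) were left out. The 8 ChIP-seq samples were not analysed here.

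Of 54435 features 28251 had counts, and 16792 passed edgeR's filterByExpr. Counts were scaled by TMM (factors 0.937 to 1.05) and fitted with edgeR 4.0.16's quasi-likelihood model on 6 group means, leaving 6 residual degrees of freedom. Adjusted p values are Benjamini-Hochberg over the 16792 features, with a threshold of 0.05, and the SE is the size of the log2 fold change over the square root of F. CPM on the log scale used a prior count of 2. The floor of 3 counts covers counting error only. A p value rests on the spread between the 2 libraries within a group, estimated jointly over the 6 groups. KO1 day 0, whose replicates stood apart, is among these groups. Nothing in the labels says that the 2 libraries of a group are separate cultures.

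The 36 genes, the other pathway lists and the marker lists were chosen with earlier results of these data known. Some withheld pathway genes are not reported here. Named beyond the 36 genes are the 2 largest called each way per list in the WT change with day and in KO1 against WT at day 4. Of the 8 marker lists, neuroectoderm summed to 34.1 to 40.4, mesoderm to 122 to 176, hepatic and yolk sac endoderm to 9.97 to 16.3 and fibroblast to 412 to 509 CPM at day 4. Alternatives were RLE and upper-quartile factors, no filter, the replicate block, only the groups compared, DESeq2 1.42.0 and leaving out each of 12 libraries. Software was R 4.3.3, limma 3.58.1, Python 3.11.15, pandas 2.3.3 and matplotlib 3.10.9.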

Additional observations from a re-analysis of the deposited data

Results flagged for a closer look

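The change from day 0 to day 4 differed between KO1 and WT, by the interaction of line and day in edgeR, for 30 of the 36 genes, 27 higher and 3 lower, where 4.99% of all features were higher and 4.81% lower. Values are the log2 change in KO1 minus that in WT. On the way to squalene they were ACAT2 1.82, HMGCS1 2.17, MVK 1.77, MVD 2.03, IDI1 1.78, FDPS 1.41 and FDFT1 1.29. From squalene to cholesterol they were SQLE 1.25, LSS 1.48, CYP51A1 1.77, MSMO1 1.52, NSDHL 1.46, HSD17B7 1.56, EBP 1.01, SC5DL 0.93 and DHCR7 1.27. In the control of SREBP they were SCAP −0.57 and INSIG1 2.57, and in transport and efflux STARD4 1.63, NPC1 0.99, ABCA1 −2.82 and MYLIP −1.24. Among fatty acid genes they were ACLY 1.41, ACSS2 2.67, ACACA 0.98, FASN 1.40, ELOVL6 1.43, SCD 1.38, FADS1 0.93 and FADS2 0.93. The same test for KO2 against WT called 3 genes, ACAT2 at 0.46, ACACA at 0.54 and ELOVL6 at 0.46, where 6.37% of all features were higher. Of these ACAT2 and ELOVL6 lost their call without WT day 4 replicate 1, and ACAT2 also without KO2 day 0 replicate 2.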

How the results depend on the processing

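Each comparison was recomputed under 18 alternatives, and no call turned to the opposite direction. The calls of 30 of 34 genes in KO1 against WT at day 4, 28 of 30 in the KO1 interaction, 22 of 29 in the WT change with day, 31 of 32 in the KO1 change, 23 of 28 in the KO2 change and 32 of 35 in KO2 against KO1 held under all 18. In KO2 against WT at day 4 it was 4 of 11 and in the KO2 interaction 1 of 3.

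Same-numbered deviations correlated at −0.04 to 0.15 over 15 pairs of groups and over 0.1 in 1. With 2 libraries a group, these values cannot settle whether the replicate numbers pair the samples. The main fit used no replicate block. With the replicate block 5 genes were called higher and 1 lower in the KO2 interaction, against 3 and 0 without it. Over all features 7.492% were then higher and 8.296% lower, against 6.37% and 7.5% without it. In KO2 against WT at day 4 the block gave 12 higher and 2 lower, beside 15.04% and 15.39% of all features. Without the filter 4 genes were called higher in KO1 against WT at day 0, beside 0.8247% of all 28251 features. In the KO2 interaction 7 were then higher and 1 lower, beside 4.729% and 4.941%. In fits of only the groups compared 14 genes were called higher and 5 lower in KO2 against WT at day 4. There 20.1% of all features were higher and 21.7% lower. The KO2 interaction had 7 higher and 3 lower in such fits, beside 12.96% and 12.01% of all features.

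Leaving out 1 library at a time gave 0 to 13 genes higher and 0 to 1 lower in KO1 against WT at day 0, 28 to 30 higher and 2 to 5 lower in KO1 against WT at day 4, 4 to 13 higher and 0 to 6 lower in KO2 against WT at day 4, and 1 to 7 higher and 0 to 3 lower in the KO2 interaction. A lone library was assumed to vary like the other groups. The KO2 interaction's median, 0.02, ranged from −0.0417 to 0.10 and was below 0 without WT day 0 replicate 1 (−0.03), KO2 day 0 replicate 1 (−0.0041), WT day 4 replicate 1 (−0.0417) or KO2 day 4 replicate 2 (−0.0399). The causes were not tested. In the search of promoters, reading the open base of the sterol element core as C also left 1 window.

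Over all features, calls higher and lower in KO1 against WT at day 0 numbered 10 and 30, against 233 and 150 without the filter, 16 higher with the replicate block, 1 and 11 in the groups alone, 21 higher in DESeq2 and 1939 and 1848 without KO1 day 0 replicate 1. In KO2 against WT at day 0 they numbered 9 and 15, against 60 and 53 without the filter, 61 and 44 in the groups alone and 17 higher in DESeq2. In the groups alone, lower calls in KO1 against WT at day 4 went from 1582 to 2556, higher calls in KO2 against KO1 from 1810 to 3240, the KO1 interaction from 838 and 807 to 440 and 413, and the KO2 interaction from 1070 and 1259 to 2127 and 1971. Leaving out 1 library gave 758 to 2675 higher and 595 to 2557 lower in KO1 against WT at day 4, 943 to 3171 and 1412 to 3426 in KO2 against WT, 723 to 2848 and 1423 to 3272 in KO2 against KO1, 328 to 2359 and 279 to 2154 in the KO1 interaction, and 447 to 2117 and 737 to 2128 in the KO2 interaction. At day 0 it gave 1 to 1939 and 8 to 1848 in KO1 and 1 to 69 and 1 to 51 in KO2. Depth limits ABCG1, whose day 4 values lie near the floor.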
